A study of Mus musculus with 12 samples.

Results

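The Ly6 surface antigens described here are 8 genes of small cell surface proteins, Ly6a, Ly6c1, Ly6c2, Ly6d, Ly6e, Ly6i, Ly6k and Thy1, out of 24421 genes in the authors' deposited table for splenic CD8 T cells. They were taken from the table by gene symbol, and each name had 1 row. The study sorted 500000 cells per sample from mouse spleens and sequenced polyA RNA as paired-end libraries, and its question was what linker histone H1 does in lymphocytes. The tested genotype is called cTKO in the labels and is known from the study's title and publication as a conditional knockout of the H1 genes Hist1h1c, Hist1h1d and Hist1h1e. The controls are WT, and both genotypes are of the C57BL/6 strain. The labels name no Cre driver, allele or age. The CD8 comparison holds 2 cTKO libraries (1 female and 1 male) and 2 WT libraries (1 female and 1 male), and B cells and CD4 T cells of the series were not analysed here. Nothing in the labels says that cells of animals were pooled. With 2 libraries a genotype, the p-values rest on the spread between those libraries and on that of other genes, from which the tests borrow. They measure no spread beyond the libraries compared.

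Ly6 proteins are small, disulphide-bonded domains that most often sit on the outer face of the plasma membrane through a lipid anchor, glycosylphosphatidylinositol (GPI). Mouse lymphocytes have long been sorted by them. Ly6A is stem cell antigen 1 (Sca-1), which lymphocytes gain on activation, and Ly6C, made by Ly6c1 and Ly6c2, marks monocytes and memory CD8 T cells. Ly6E is also known as thymic shared antigen 1, Ly6D marks early B lineage cells and Ly6K is best known from the testis and sperm. Thy1 (CD90) has an immunoglobulin fold and not a Ly6 domain, and shares with the others the GPI anchor and its use as a T cell antigen. In the deposited table all 8 genes carry the gene ontology term for anchoring to a membrane.

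Of the 8 genes, 7 stand in 1 stretch of 350 kb on chromosome 15 (GRCm38). From the lower coordinate up, Ly6d lies at 74762056 to 74763567, Ly6k at 74796874 to 74799968, Ly6e at 74955025 to 74959904, Ly6i at 74979534 to 74983434, Ly6a at 74994877 to 74998031, Ly6c1 at 75044018 to 75048920 and Ly6c2 at 75108161 to 75112066. Ly6e is read from the plus strand and the other 6 from the minus strand. Thy1 lies apart, on chromosome 9 at 44043384 to 44048579, on the plus strand.

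Ly6c1 and Ly6c2 are close copies, and their sequences are shown because the values of one may hold reads of the other. Their coding sequences (GENCODE M21 transcripts, GRCm38) aligned over 393 bases without a gap and differed at 9, an identity of 97.7%. The first 120 coding bases hold 6 of the 9 differences, which are in capitals:
Ly6c1: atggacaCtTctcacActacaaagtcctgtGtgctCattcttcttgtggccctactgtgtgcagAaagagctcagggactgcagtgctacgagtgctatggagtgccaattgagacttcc
Ly6c2: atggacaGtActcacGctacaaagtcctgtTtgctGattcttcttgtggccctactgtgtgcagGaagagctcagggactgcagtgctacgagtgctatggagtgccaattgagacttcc
Ly6a was 83.7% identical to Ly6c1, 83.5% to Ly6c2 and 86.3% to Ly6i over the aligned coding bases, whereas Thy1 matched the others at between 50.4% and 53.3% of aligned bases and Ly6e at between 49.4% and 56.6%. Of all 50-base stretches in the annotated transcripts of Ly6c1, 32.8% also occur in another gene, most of them in Ly6c2 or Ly6a. The share was 19% for Ly6a, 14.4% for Ly6c2 and 4.76% for Ly6i, and 0% for Ly6d, Ly6e, Ly6k and Thy1. Of the 100-base stretches, 10.1% were shared for Ly6c1, 5.81% for Ly6c2 and 1.45% for Ly6a. How reads that map to more than 1 gene were counted is not given in the sources used here, so the values of Ly6a, Ly6c1, Ly6c2 and Ly6i are uncertain to that extent.

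The promoters of Ly6c1 and Ly6c2 are shown because both genes rose in cTKO cells. RefSeq (GRCm38.p6) gave the window from 250 bases before to 50 bases after the start for these 2 of the 8 genes. The starts it used, at 75048837 in Ly6c1 and 75111971 in Ly6c2, lie 83 and 95 bases inside the outermost gene ends given above. The Ly6c1 window is chr15:75048788-75049087 and the Ly6c2 window chr15:75111922-75112221, both read 5' to 3' on the minus strand, with motif matches in capitals:
Ly6c1: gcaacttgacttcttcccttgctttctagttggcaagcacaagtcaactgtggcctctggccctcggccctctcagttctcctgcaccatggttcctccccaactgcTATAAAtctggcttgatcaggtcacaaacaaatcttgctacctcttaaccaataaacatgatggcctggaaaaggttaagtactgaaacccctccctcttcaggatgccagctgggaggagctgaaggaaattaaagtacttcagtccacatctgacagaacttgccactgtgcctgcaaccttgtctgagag
Ly6c2: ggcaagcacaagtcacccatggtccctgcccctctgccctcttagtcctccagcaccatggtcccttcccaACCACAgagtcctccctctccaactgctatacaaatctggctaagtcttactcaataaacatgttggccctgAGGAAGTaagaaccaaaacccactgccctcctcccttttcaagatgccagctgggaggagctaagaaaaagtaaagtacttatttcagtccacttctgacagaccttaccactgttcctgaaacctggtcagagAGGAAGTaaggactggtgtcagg
The windows were 78.2% identical over 266 aligned bases. Each of 7 motifs was searched on both strands. The Ly6c1 window held 1 TATA match (TATAAA, found in 13.6% of 32851 promoter windows). The Ly6c2 window held 1 Runx match (TGTGGT, in 16.8%), here in its complement, and 2 ETS matches (AGGAAGT, in 9.35%). Neither window held the GAS motif (TTCNNNGAA, in 8.3%), the ISRE (GAAANNGAAA, in 3.44%), the T-box motif (GGTGTGA, in 3.98%) or the E-box (CACGTG, in 7.15%). A match of letters is a description and no site of binding.

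The deposited table gives for each gene a mean normalized count over the 4 libraries, a log2 fold change with its standard error (SE) and p-values from the authors' DESeq2 test. Of the 24421 genes 18153 had a read and 12972 had an adjusted p, and summed over genes this mean came to 16257610, which stands for the depth of an average library. The reads of each library were then solved from the deposited values for all 8 genes, and a normalized read count below is that number of reads divided by the library's size factor. The size factors were 1.207396 and 0.804969 for the cTKO libraries and 1.214423 and 0.866028 for the WT libraries. Each of 4 Y-linked genes (Ddx3y, Eif2s3y, Kdm5d and Uty) had 1 whole-read solution with 1 library a genotype, and it put the reads in the shallower library of both, so the deeper libraries are called female and the shallower ones male. Sex and depth of the libraries cannot be told apart. The direction of the fold changes is not stated in the table and was read as cTKO over WT from the deleted genes. Hist1h1c (deposited log2 fold change -8.04) had 0 and 0 reads in the cTKO libraries and 41 and 56 in the WT libraries. Hist1h1e (-8.93) had 0 and 0 in cTKO and 64 and 112 in WT. The reads of both were solved from the mean, with the sign of the fold change given. Hist1h1d had a deposited log2 fold change of -5.49 that did not pass (adjusted p 0.128). An inverted reading would turn every direction given here.

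Ly6a, Ly6c1 and Ly6c2 were higher in cTKO than in WT CD8 T cells, between 4.47-fold and 6.17-fold in the deposited fit. No member was lower. Ly6d, Ly6e, Ly6k and Thy1 did not pass, and Ly6i had too few reads for an adjusted p. These 3 of the 7 tested members compare with 9.77% higher and 3.61% lower among all 12972 tested genes (DESeq2, adjusted p under 0.05). The median log2 fold change of the 7 tested members was 1.28, and that of all tested genes 0.04. At an unadjusted p under 0.05, 4 members were higher and 0 lower, against 2162 and 1258 of the 18153 genes with a read. limma on the reads per library called 3 of 7 members higher and 0 lower, against 817 and 340 of the 7510 genes with solved reads that it tested. The cTKO pair of libraries lay wholly above the WT pair in 5 of the 8 members and wholly below it in 1, with overlap in 2. Among 8668 tested genes with reads per library, 36.5% lay above and 22.7% below in this way. More cells that express a gene and more RNA per cell cannot be told apart in these bulk libraries.

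**Figure D1:**
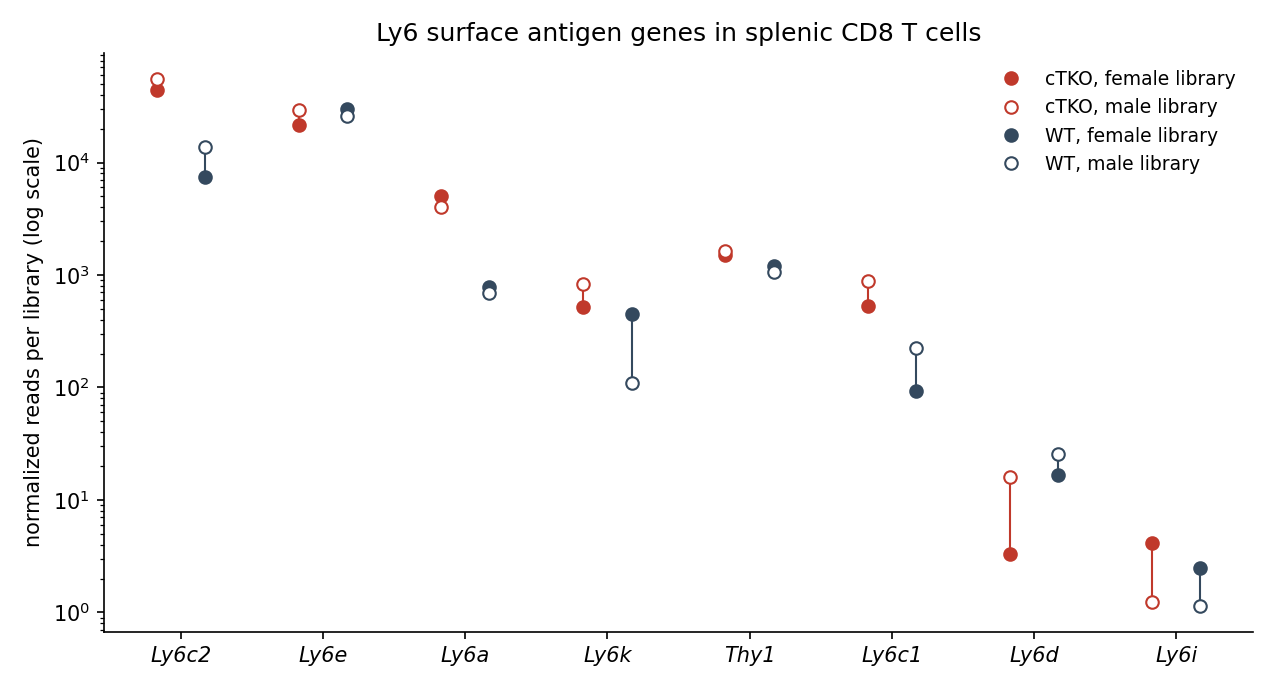
Normalized reads of the 8 genes in each library (points, log scale), cTKO left of WT, with filled points for female and open points for male libraries and a line joining the 2 libraries of a genotype. The genes run from the highest to the lowest mean per kb of exon. Ly6c2, Ly6a and Ly6c1 have both cTKO points well above both WT points, and the male WT library is low for Ly6k, at 110 normalized reads.

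Ly6a, the gene of Sca-1, had 6107 reads in the female and 3246 in the male cTKO library, against 943 and 604 in the female and male WT libraries. After scaling these were 5058 and 4032 normalized reads in cTKO and 776 and 697 in WT, with means of 4545 ± 725 in cTKO and 737 ± 55.9 in WT (SD, n = 2 each). The groups were far apart, and the libraries of a genotype lay close together. The deposited log2 fold change was 2.62 (SE 0.30, 95% interval 2.03 to 3.22, DESeq2 adjusted p 1.09e-15), a 6.17-fold difference. Within the females the cTKO level was 6.51 times the WT level, and within the males 5.78 times.

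Ly6c2 carried most of the Ly6C reads. It had 53280 and 44194 reads in the female and male cTKO libraries, against 8993 and 11898 in the female and male WT libraries. In normalized reads these came to 44128 and 54902 in cTKO and 7405 and 13739 in WT, with means of 49515 ± 7618 in cTKO and 10572 ± 4478 in WT (SD, n = 2 each). The male library was the higher of the pair in both genotypes, and the 2 groups did not overlap. The deposited log2 fold change was 2.23 (SE 0.35, 95% interval 1.54 to 2.91, DESeq2 adjusted p 1.35e-08), or 4.68-fold. The ratio of cTKO to WT was 5.96 in females and 4.00 in males.

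Ly6c1, the other Ly6C gene, had 637 and 713 reads in the female and male cTKO libraries, against 113 and 194 in the WT ones. The normalized reads were 528 and 886 in cTKO and 93.0 and 224 in WT, again with the male library higher in each genotype and no overlap between genotypes. The deposited log2 fold change of 2.16 (SE 0.45, 95% interval 1.27 to 3.05, DESeq2 adjusted p 5.73e-05) was close to that of Ly6c2. In limma, the call was lost without the female WT library, at a log2 fold change of 1.48 and an adjusted p of 0.132, and over the 8 limma settings the adjusted p ran between 1.84e-11 and 0.132. Ly6c1 made up 1.18% of the reads of both Ly6C genes in the female cTKO library (95% Wilson interval 1.09% to 1.28%) and 1.59% in the male one (1.48% to 1.71%). In WT the share was 1.24% in the female (1.03% to 1.49%) and 1.6% in the male library (1.4% to 1.84%). These intervals cover counting error only, and the shares of the genotypes overlapped. How many of the reads assigned to Ly6c1 came from Ly6c2 transcripts was not tested.

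Ly6e, the gene of thymic shared antigen 1, was among the most abundant transcripts and did not differ beyond the spread between libraries. It had 25874 and 23805 reads in the female and male cTKO libraries and 36116 and 22328 in the female and male WT libraries. In normalized reads these were 21430 and 29572 in cTKO and 29739 and 25782 in WT, so the genotypes overlapped and the female library was the lowest in cTKO and the highest in WT. The deposited log2 fold change was -0.12 (SE 0.30, 95% interval -0.72 to 0.47, DESeq2 adjusted p 0.839). Its interval lies below that of the nearby Ly6a, 2.03 to 3.22.

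Thy1, the T cell antigen outside the cluster, had 1800 and 1316 reads in cTKO and 1445 and 920 in WT, in the female and male library of each. That is 1491 and 1635 normalized reads in cTKO and 1190 and 1062 in WT, and the higher WT library stayed below the lower cTKO one by a small margin. Its log2 fold change of 0.47 did not pass (SE 0.30, 95% interval -0.12 to 1.07, DESeq2 adjusted p 0.322).

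Ly6k, known from sperm, had reads in every library. It had 631 and 672 reads in the female and male cTKO libraries, against 543 and 95 in the female and male WT libraries. The normalized reads of 523 and 835 in cTKO and of 447 and 110 in WT did not overlap, but the WT libraries differed 4.08-fold from each other. The deposited log2 fold change was 1.28 (SE 0.52, 95% interval 0.26 to 2.30) and did not pass (DESeq2 adjusted p 0.0831). The ratio of cTKO to WT was 1.17 in females and 7.61 in males, so the difference rests on the male WT library. In limma without that library the log2 fold change was 0.35 (adjusted p 0.81). Without the female WT library it was 2.46 (0.00227), without the female cTKO library 1.77 (5.08e-06) and without the male cTKO library 0.97 (0.0203). With sex as a block, a fit added after the reads were known, it was 1.41 (0.00238).

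Ly6d, the early B lineage marker, was near the limit of detection. It had 4 and 13 reads in the female and male cTKO libraries, against 20 and 22 in the WT ones. The normalized reads were 3.31 and 16.1 in cTKO and 16.5 and 25.4 in WT, with the male cTKO library just below the female WT one. Its log2 fold change of -1.13 (SE 1.14, 95% interval -3.36 to 1.10) did not pass (DESeq2 adjusted p 0.565). In limma it passed without the male cTKO library alone, at -2.67, where the cTKO side rests on 4 reads. That fit also called more genes lower, over the genes it tested, than the fit with all libraries. Over the 8 limma settings the log2 fold change of Ly6d ran between -2.67 and -0.38. The 8 B cell markers summed to 943 and 270 normalized reads in the female and male cTKO libraries, against 1552 and 1126 in the WT libraries. None was at 0 over the 4 libraries together, but Pax5 had 0 and 1 reads in cTKO and 0 and 0 in WT. The part of B cells in the Ly6d reads was not tested.

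Ly6i had 5 and 1 reads in the female and male cTKO libraries and 3 and 1 in the WT libraries, too few for a comparison at this depth. Its deposited 95% interval ran between -4.40 and 5.55 on the log2 scale.

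**Figure D2:**
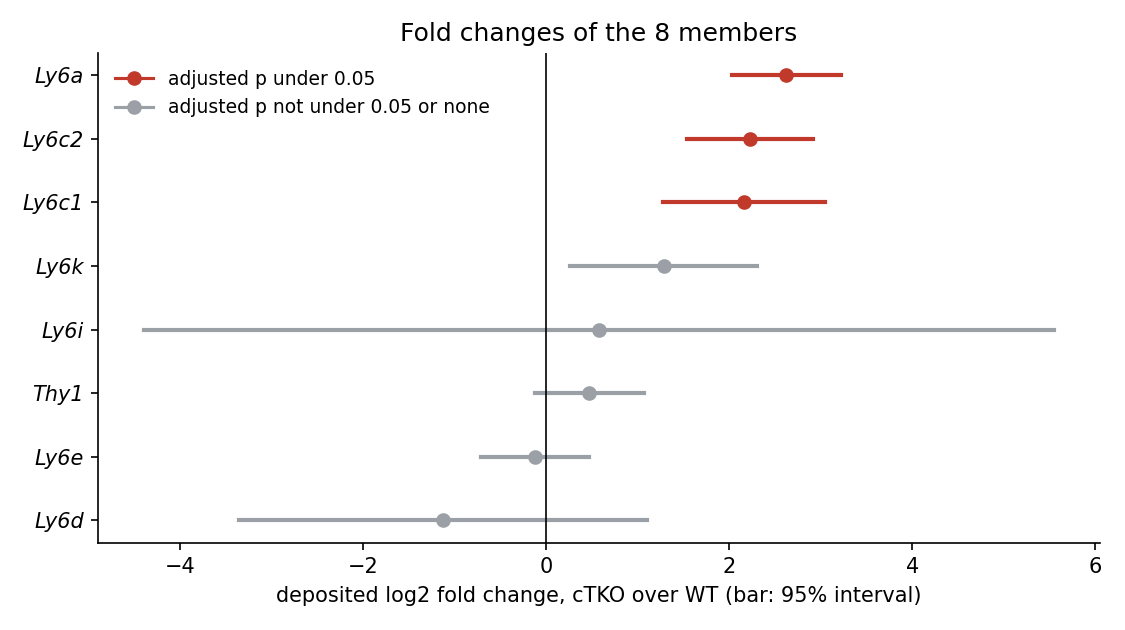
Deposited log2 fold changes of the 8 genes, cTKO over WT (points), with their 95% intervals (bars), red where the adjusted p was under 0.05. The intervals of Ly6a, Ly6c2 and Ly6c1 lie above 1, those of Thy1, Ly6e, Ly6d and Ly6i include 0, and that of Ly6i spans -4.40 to 5.55.

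The order of the levels per kb of exon differed between the genotypes at its top, and this rests on the length used. Levels were set side by side as normalized reads per kb of exon, using the union of each gene's annotated exons. That union is 2740 bases for Ly6c2 and 3784 for Ly6e, whereas the transcripts used for their coding sequences have 822 and 2281 bases. Per base of those transcripts, Ly6c2 and Ly6e would overlap between libraries in WT, and Ly6c2 would still lead in cTKO. In cTKO cells Ly6c2 stood first with 18071, followed by Ly6e with 6739, Ly6a with 3772, Ly6k with 819, Thy1 with 522 and Ly6c1 with 421. Thy1 and Ly6c1 overlapped between libraries there, whereas each other neighbour in the order was apart. In WT cells Ly6e stood first with 7336, followed by Ly6c2 with 3858, Ly6a with 612, Thy1 with 376, Ly6k with 336 and Ly6c1 with 94.5. In WT the Ly6k libraries overlapped with those of both Thy1 and Ly6c1. Ly6d, at 13.1 in cTKO and 28.1 in WT, and Ly6i, at 2.33 in cTKO and 1.57 in WT, closed the order in both. Over the 4 libraries together, Ly6c2 ranked 34 and Ly6e 66 among 17408 genes with a read and a known exon length. The normalized reads of all 8 genes summed to 73164 and 91879 in the cTKO libraries, against 39670 and 41641 in the WT libraries. Ly6c2 held 60.3% and 59.8% of that sum in cTKO and 18.7% and 33.0% in WT, while Ly6e held 29.3% and 32.2% in cTKO and 75% and 61.9% in WT.

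**Figure D3:**
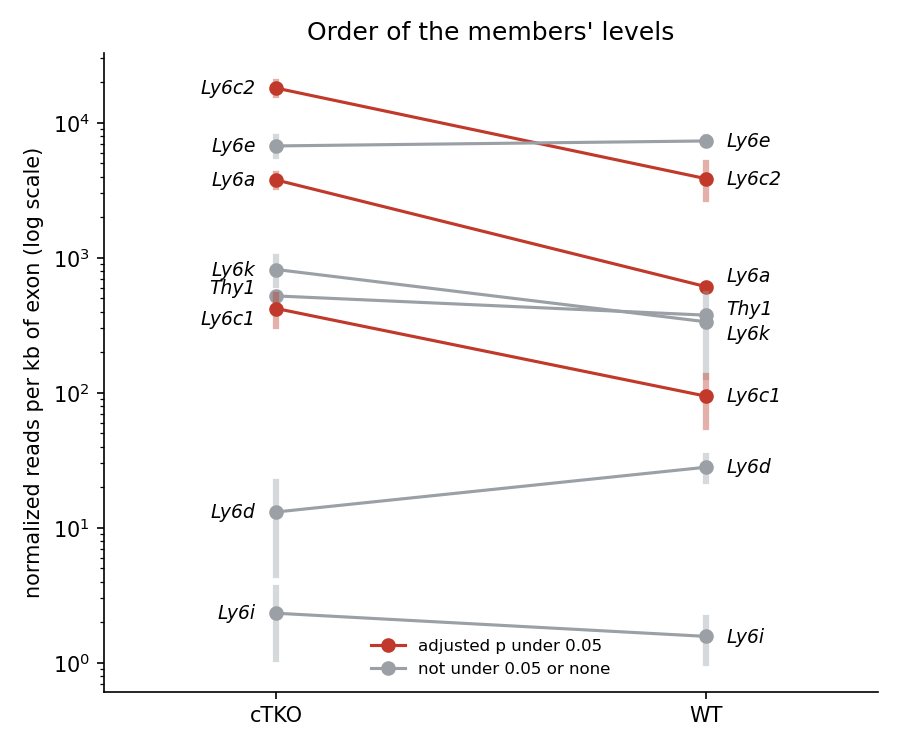
Mean normalized reads per kb of exon of each gene in cTKO (left) and WT (right), on a log scale, with thick bars from the lower to the higher library and lines joining the same gene, red where the adjusted p was under 0.05. With the exon union as length, the lines of Ly6c2 and Ly6e cross: Ly6c2 leads in cTKO at 18071 and Ly6e in WT at 7336.

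On chromosome 15 the 3 genes that rose were neighbours. Ly6a, Ly6c1 and Ly6c2 stand at the upper end of the cluster, with gaps of 46 kb and 59 kb between them and no other gene of the table in between. Ly6i lies 11 kb below Ly6a, and Ly6e 20 kb below Ly6i. In a window reaching 500 kb to each side of the cluster, 30 genes of the table were found, 23 of them outside the list. Of these 23 genes, 11 had a read, 5 were tested and 0 passed in either direction with DESeq2. At an unadjusted p under 0.05, 0 were higher and 1 lower, and limma, which tested 4, called 0. The tested ones were Arc, Jrk, Them6, Lynx1 and D730001G18Rik (chosen after their values were seen), with log2 fold changes between -1.05 and 2.18. Jrk had the smallest adjusted p, at 0.094. Beyond Ly6c2, the next gene of the table is Ly6g, a neutrophil antigen gene with a mean normalized count of 0.207. Over the whole of chromosome 15, 50 of 505 tested genes (9.90%) were higher and 23 lower. Around Thy1 on chromosome 9, the same window held 18 tested genes besides Thy1, of which 4 rose and 0 fell. These were Hyou1 (log2 fold change 1.68, SE 0.50), Nlrx1 (1.39, SE 0.42), Bcl9l (2.26, SE 0.49) and Mcam (5.13, SE 0.78), the last encoding the adhesion molecule CD146.

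**Figure D4:**
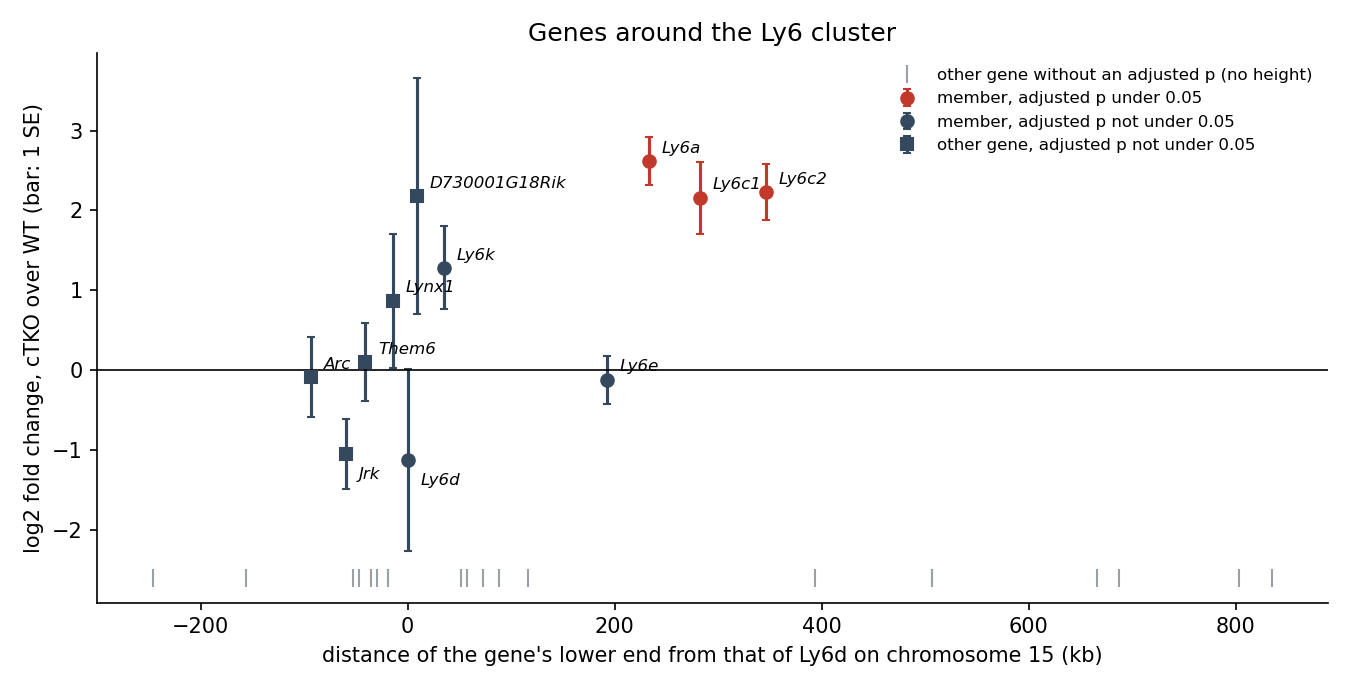
Deposited log2 fold change, cTKO over WT (points, bars of 1 SE), of each tested gene around the Ly6 cluster, against the distance of its lower end from that of Ly6d in kb, with circles for members, squares for other genes and red for an adjusted p under 0.05. Grey ticks mark the place of other genes without an adjusted p. Ly6a, Ly6c1 and Ly6c2 are the red points, and Ly6e, 193 kb from Ly6d, lies near 0.

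Most other genes of the Ly6 and urokinase receptor family had few or no reads in these cells. Of 31 genes listed, 30 are in the table, 16 had a read and 4 were tested, of which 1 was higher and 2 lower. Ly6g5b, a family gene of the major histocompatibility region, had 141 and 121 reads in cTKO and 25 and 36 in WT (log2 fold change 2.12, SE 0.57, DESeq2 adjusted p 0.00346). Plaur, the urokinase receptor, fell, with 26 and 49 reads in cTKO and 721 and 189 in WT (-3.32, SE 0.57, 2.24e-07). Lypd6b, another Ly6 domain gene, fell as well, with 311 and 295 reads in cTKO and 880 and 674 in WT (-1.27, SE 0.35, 0.00408). The fourth, Lynx1, which in mouse brain binds acetylcholine receptors, had 47 and 26 reads in cTKO and 33 and 10 in WT and did not pass (adjusted p 0.55).

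Of 17 tested genes for other GPI-anchored surface proteins, out of 27 listed, 2 (11.8%) were higher and 1 (5.88%) lower, with a median log2 fold change of -0.02. These shares lay near the 9.77% and 3.61% of all tested genes, and limma called 2 of 13 higher and 1 lower. Bst1 (CD157, an ADP-ribosyl cyclase) had 434 and 356 reads in cTKO and 1 and 2 in WT (DESeq2 adjusted p 5.06e-16). Cd160, a receptor of cytotoxic lymphocytes, had 2933 and 3033 reads in cTKO and 1252 and 1128 in WT (log2 fold change 1.41, SE 0.34, adjusted p 0.000577). Izumo1r, known as folate receptor 4 on regulatory T cells, fell, with 94 and 92 reads in cTKO and 583 and 506 in WT (-2.48, SE 0.39, 1.55e-08). Over the 136 other genes that the table annotates as anchored to a membrane, 49 were tested, of which 9 (18.4%) were higher and 8 (16.3%) lower.

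All 29 genes of GPI synthesis and remodelling found in the table were tested, of which 2 (6.9%) were higher and 1 (3.45%) lower, with a median log2 fold change of 0.21. These shares were no larger than the 9.77% and 3.61% of all tested genes. The lower call was lost at an adjusted p under 0.01 and after re-centring, and limma called 0 higher and 2 lower (Pigx and Pigs, Pigs being named after its values were seen). Gpld1, a phospholipase that cuts the anchor, had 569 and 102 reads in cTKO and 68 and 84 in WT (1.98, SE 0.57, DESeq2 adjusted p 0.0074). Pign, which modifies a mannose of the anchor, had 964 and 225 reads in cTKO and 286 and 180 in WT (1.28, SE 0.47, adjusted p 0.0455). For both, the female cTKO library held most of the cTKO reads. Pigx, a subunit of a mannosyltransferase, fell, with 950 and 996 reads in cTKO and 2840 and 1500 in WT (-1.01, SE 0.35, adjusted p 0.031).

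Ly6a, Ly6c1, Ly6c2 and Ly6e are known as genes that interferon induces in mouse cells. Of 26 tested genes of the type I interferon response, which does not hold them, 2 (7.69%) were higher and 7 (26.9%) lower, with a median log2 fold change of -0.24. Among all tested genes, 9.77% were higher and 3.61% lower. At an adjusted p under 0.01 (DESeq2), 3 of the interferon genes were lower. The 2 higher interferon genes, named after their values were seen, were Mx1 (2.38, SE 0.44) and Ifi44 (2.75, SE 0.54). Ly6C and Ly6A are also known from memory CD8 T cells. Of 16 memory and effector genes, chosen with the direction in these samples known, 15 were higher and 0 lower with DESeq2. At an unadjusted p under 0.05, 15 were higher and 0 lower, and limma called 13 of 15 higher and 0 lower. Of 13 genes of naive T cells 3 (23.1%) were lower, namely Ccr9, Ccr7 and Dapl1, again named after their values were seen. At an adjusted p under 0.01 (DESeq2), 1 of the naive genes was lower.

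**Figure D5:**
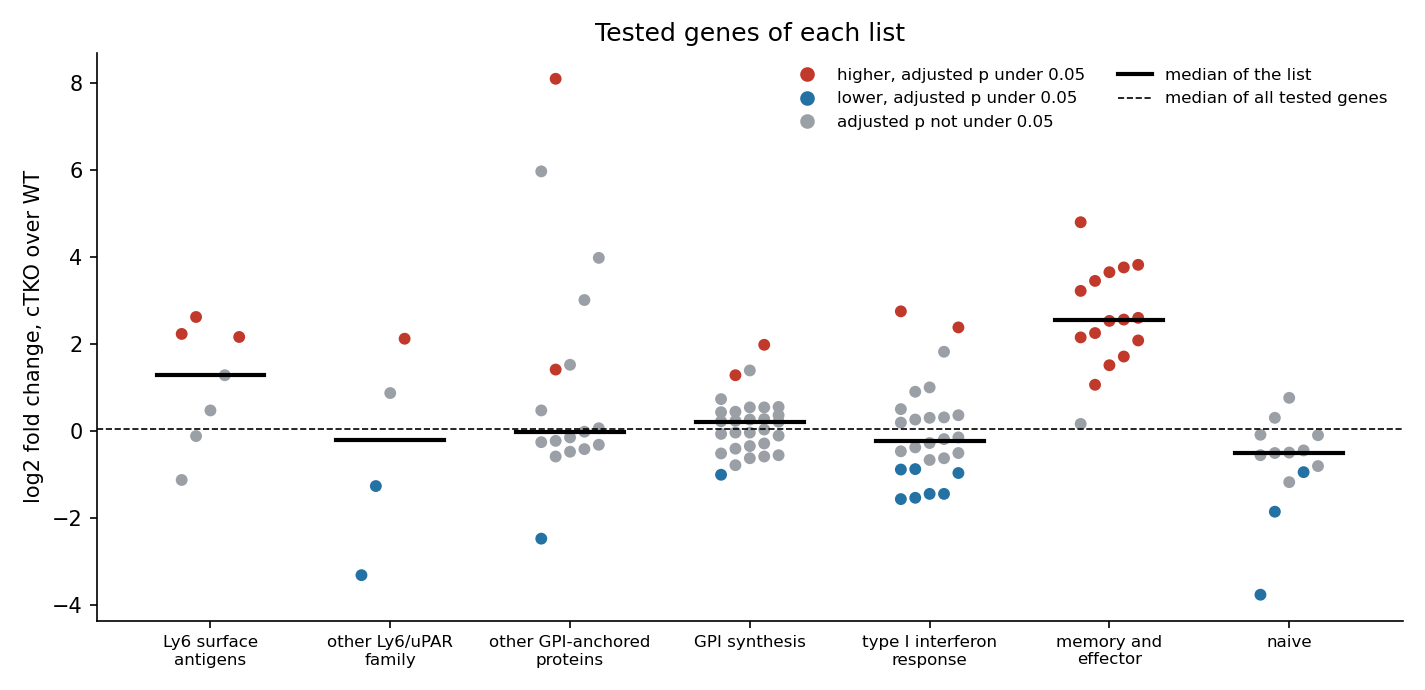
Deposited log2 fold changes, cTKO over WT, of the tested genes of each list (points), with the median of the list (thick line) and of all tested genes (dashed line). Red points were higher and blue points lower at an adjusted p under 0.05. The list of Ly6 surface antigens has its median at 1.28 with 3 red points, and the type I interferon list at -0.24 with 7 blue points.

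Among the genes compared, the named ones most like Ly6a over the 4 libraries were Napb, Ndnf and Tspan9. Likeness was the root mean square distance between log2 normalized reads, each gene centred on its own mean, over 984 genes that passed and had reads per library. The distance was 0.0335 for Napb, with 139 and 74 reads in cTKO and 21 and 13 in WT. It was 0.0795 for Ndnf, with 183 and 97 reads in cTKO and 32 and 18 in WT, and 0.125 for Tspan9, a tetraspanin gene, with 2234 and 1033 in cTKO and 347 and 245 in WT.

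Markers of the sorted cells and of other Ly6 expressing cells were read beside these results. Of 8 CD8 T cell markers 0 passed with DESeq2, 0 were higher and 1 lower at an unadjusted p under 0.05, and limma called 0 of 6. Cd8a had 18555 and 16752 reads in cTKO and 26505 and 20099 in WT. Of 8 markers of monocytes and dendritic cells, which carry Ly6C, 2 were higher (Itgax and Ccr2) and 1 lower (Ctss). Their summed normalized reads were 6922 and 6841 in cTKO and 6249 and 5166 in WT, with none at 0. Lyz2, a defining monocyte gene, had 43 and 6 reads in cTKO and 20 and 11 in WT. Of 7 natural killer cell markers 5 were higher and 1 lower, with Klrb1c, Tyrobp, Klra8 and Klre1 leading by p. The lower one, named after its values were seen, was Fcer1g (log2 fold change -2.70, SE 0.78, DESeq2 adjusted p 0.00749). Its reads per library were not solved, so the sum that follows leaves it out. The 6 with reads per library summed to 3103 and 2225 normalized reads in cTKO and 406 and 388 in WT, and Ncr1, the defining one, had 22 and 1 reads in cTKO and 2 and 4 in WT. Of 4 tested markers of plasmacytoid dendritic cells 0 were higher and 1, Ccr9, was lower, and limma called 1 higher and 1 lower. The 5 with reads per library summed to 1145 and 1989 normalized reads in cTKO and 3275 and 3677 in WT, most of them from Ccr9 and Bst2. Klk1 was at 0 and Siglech had 0 and 1 reads in cTKO and 0 and 0 in WT. Of the tested markers of other cells, 1 of 6 of plasma cells and 1 of 3 of CD4 T cells were higher, 1 of 5 of B cells and 1 of 4 of erythroid cells were lower, and 0 of 2 of neutrophils passed (1 higher at an unadjusted p under 0.05). The part of natural killer cells in the higher Ly6a and Ly6C was not tested.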

How the data were processed

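RNA of sorted mouse splenic CD8 T cells was sequenced from 2 cTKO and 2 WT animals. Per the submitters' processing notes, reads were aligned with STAR to mm10 (GRCm38.p6) and compared by the authors with DESeq2. Their versions are not stated in the sources at hand. The authors' deposited table holds a mean normalized count per gene (a signal over all 4 libraries), a log2 fold change with its standard error, the Wald statistic (a score) and a p-value with its adjusted p, all made by the authors. Where the text names DESeq2, the test is the authors' deposited one. For the model's terms, the counter and the handling of reads shared between genes, no source is at hand.

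Whole reads per library were worked back with Python 3.11.15 for 12027 of 14238 genes tried (84.5%), meaning all genes with a mean below 1000 and higher ones that the text needs. A mean is a sum of whole reads, each weighted by its library's size factor, so the lowest means, of single reads, give the size factors. Below a mean of 20 the mean alone fixed the reads, and above it the reads also had to return the fold change within 2e-08 and the dispersion within 0.005. Where no such solution was found up to a mean of 1000, the mean alone was used again. Those solutions had to have few reads in 1 genotype, and only a loose check against the fold change was made. Genes with a genotype at 0, such as Hist1h1c and Hist1h1e, were solved in this way. Genes with several solutions were left out, and a simulated table was solved as a test. Such reads are inferred. limma 3.58.1 (voom, R 4.3.3) was run on them with a minimum mean of 10 normalized reads. Genes with a mean of 1000 or more outside the lists and the chromosome 15 window are missing from these fits. Except with the authors' size factors, the scaling between libraries came from the solved genes alone. Exon lengths and coding sequences are from GENCODE M21, and coordinates and promoters from RefSeq GRCm38.p6.

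The members and lists were chosen with earlier results of these data known. All 8 members are named, and of the other Ly6 family, GPI surface and GPI synthesis lists the genes that pass, at most 6 each by p, of marker lists at most 4, and in addition the deleted H1 genes, passing neighbours and the 3 genes most like the called member with the smallest p. No set test was run.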

Additional observations from a re-analysis of the deposited data

Results flagged for a closer look

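Ly6e did not pass in any setting run. Its log2 ratio of cTKO over WT was -0.47 between the female, deeper libraries and 0.20 between the male, shallower ones. Each ratio rests on 1 library a genotype, the difference was not tested, and sex and depth cannot be told apart.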

How the results depend on the processing

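The calls of Ly6a and Ly6c2 held in every alternative run, and that of Ly6c1 in all but limma without the female WT library. Members called higher numbered 3 at an adjusted p under 0.01, with no filter on the mean, after re-centring the fold changes by -0.10 (the median over tested genes whose mean reaches 100) and in limma with TMM or the authors' size factors. Without a filter on low counts limma called 4, Ly6k being added, and it then called 1249 of the 12027 genes with solved reads higher. Leaving out 1 library at a time in limma gave log2 fold changes of 2.34 to 2.58 for Ly6a and 1.73 to 2.53 for Ly6c2. They ran from 1.48 to 2.66 for Ly6c1, 0.35 to 2.46 for Ly6k and -2.67 to -0.38 for Ly6d. The number of genes called over the tested genes also differed between these fits, so members called are not counted for them. In those fits the lone sample is assumed to vary like the other genotype. Ly6e turned to 0.01 in limma without the female cTKO library. Genes of GPI synthesis called higher were 1 in place of 2 at an adjusted p under 0.01 and with no filter, and lower 0 in place of 1 at 0.01 and after re-centring. limma called 0 of them higher and 2 lower. Interferon genes called lower were 3 in place of 7 at 0.01. Naive genes called lower were 1 in place of 3 at 0.01, and 1 was called higher after re-centring in place of 0. The cause was not tested. Ratios within each sex were added after the reads were known. Ly6d and Ly6i lie near the limit that depth sets. The animal numbers in the labels differ between the genotypes and pair no libraries. limma with sex as a block, also added after the reads were known and with 1 residual degree of freedom, called 4 members higher, Ly6k being added, and 0 lower. Over the genes with solved reads that it tested, that fit called 1090 of 7510 higher and 460 lower.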
